A study of Homo sapiens with 19 samples.

Results

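The 10 genes described here are BMP4, ID1, ID2, ID3, SMAD6, SMAD7, RUNX2, ALPL, TNFRSF11B and SPP1, which belong to the bone morphogenetic protein (BMP) pathway and to the osteoblast programme. They were chosen by symbol for the lineage of U2OS, an established human osteosarcoma cell line. All 10 had RNA values, and all 10 were among the 11673 genes with a mean of at least 1 FPKM over both RNA libraries (FPKM, fragment numbers divided by the length of the transcript and the size of the library). The cells were transfected with EP400 siRNA or with a mock siRNA directed against GFP and were harvested after 72 hr, and all were kept in DMEM that contained Tet-approved FBS. EP400 is a SNF2-type ATPase, the remodelling subunit of the TIP60 complex. RNA and the peaks of chromatin immunoprecipitation (ChIP) for the histone variants H3.3 and H2AZ, RNA polymerase II (Pol II) and the Mediator subunit MED26 were available for EP400 siRNA and for mock siRNA. Peaks of the histone marks H3K18ac and H3K4me1 were available for mock siRNA alone, and 1 list pooled 3 EP400 immunoprecipitations whose titles name no siRNA. With 1 library per measurement for EP400 siRNA and 1 for mock siRNA, the differences have no replicate check, and no test or p-value is given.

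BMPs are secreted ligands that bind paired serine/threonine kinase receptors, whose signal is carried to the nucleus by SMAD1, SMAD5 and SMAD9 together with SMAD4. The ID genes are direct targets of this signal, and SMAD6 and SMAD7 are induced by it or by TGF-beta and inhibit the receptors in return. In bone, BMP signalling and the transcription factor RUNX2 drive osteoblast differentiation, which is marked by alkaline phosphatase and by matrix proteins such as osteopontin.

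EP400 mRNA, the target of the siRNA, was measured at 2.28 FPKM after EP400 siRNA, with deposited confidence limits of 0.162 to 4.41, and at 10.04 FPKM after mock siRNA (limits 0.165 to 19.9). The EP400 siRNA level was 22.8% of the mock level, with limits that overlapped. The FPKM of all genes summed to 366796 after EP400 siRNA and 626424 after mock siRNA, so the scaling of the libraries bears on each ratio, and the sequencing depth is unknown. As a check of the cell type, 3 of 6 osteoblast markers reached a mean of 1 FPKM (RUNX2, ALPL and COL1A1), while SP7, IBSP and BGLAP did not, and IBSP was listed at 0 in both libraries. Of the markers of other cell types, 0 of 4 for muscle and 0 of 4 for endothelium reached it, against 3 of 5 for cartilage, 3 of 5 for epithelium, 1 of 5 for fat and 1 of 5 for osteoclasts and macrophages. The epithelial keratins KRT8 (115 FPKM after EP400 siRNA, 369 after mock siRNA) and KRT18 (316 and 519 FPKM in the same order) were the highest of these markers, while EPCAM and CDH1 stayed under 1 FPKM in both libraries. These are bulk values, in which fewer cells with a transcript and less transcript per cell cannot be told apart.

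The upstream sequences of 5 members are shown because each of these genes has 1 RefSeq start, so that the sequence belongs to the promoter of the gene whose RNA and peaks are described. Each is the 250 bases before the start, written 5′ to 3′ on the coding strand, from RefSeq on GRCh38.p14. The windows are chr20:31605039-31605288 (plus strand), chr2:8681806-8682055 (plus), chr1:23559502-23559751 (minus), chr15:66701986-66702235 (plus) and chr4:87975464-87975713 (plus). These coordinates differ from those of the peaks, which are on hg19. Capitals mark matches, on either strand, to the SMAD1/5 GC-rich element GGCGCC, the SMAD3/4 box CAGAC, the RUNX element TGTGGT and the TATA box TATAAA.
ID1: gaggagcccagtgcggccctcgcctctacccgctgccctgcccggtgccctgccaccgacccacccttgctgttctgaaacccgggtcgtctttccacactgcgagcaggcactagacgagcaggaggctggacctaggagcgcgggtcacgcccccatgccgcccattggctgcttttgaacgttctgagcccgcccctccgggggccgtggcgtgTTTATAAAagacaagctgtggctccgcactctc
ID2: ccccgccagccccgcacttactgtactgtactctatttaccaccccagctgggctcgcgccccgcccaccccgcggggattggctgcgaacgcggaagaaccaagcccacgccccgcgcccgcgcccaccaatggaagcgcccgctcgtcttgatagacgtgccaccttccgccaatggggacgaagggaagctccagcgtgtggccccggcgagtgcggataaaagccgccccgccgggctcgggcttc
ID3: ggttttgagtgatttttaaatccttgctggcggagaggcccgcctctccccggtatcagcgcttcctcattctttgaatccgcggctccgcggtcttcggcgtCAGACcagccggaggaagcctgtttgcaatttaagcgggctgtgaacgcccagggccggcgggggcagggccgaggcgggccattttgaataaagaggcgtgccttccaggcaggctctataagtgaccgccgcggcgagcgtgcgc
SMAD6: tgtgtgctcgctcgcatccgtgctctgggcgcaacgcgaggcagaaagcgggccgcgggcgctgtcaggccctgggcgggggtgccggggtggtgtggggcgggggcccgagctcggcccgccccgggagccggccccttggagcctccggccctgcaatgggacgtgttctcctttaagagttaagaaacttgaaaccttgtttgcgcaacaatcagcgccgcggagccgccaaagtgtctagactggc
SPP1: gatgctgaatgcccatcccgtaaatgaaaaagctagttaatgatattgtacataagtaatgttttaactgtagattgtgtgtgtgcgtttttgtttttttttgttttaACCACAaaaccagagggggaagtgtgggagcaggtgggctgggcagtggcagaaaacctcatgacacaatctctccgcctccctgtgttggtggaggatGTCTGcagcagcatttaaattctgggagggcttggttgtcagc
ID1 held TATAAA at positions -33 and -31 from its start, which are overlapping matches of both strands. ID3 held CAGAC at -147, SPP1 held CAGAC at -43 and TGTGGT at -142, and ID2 and SMAD6 held none of the 4 motifs in this window. Over 34943 RefSeq promoter windows of the same length, 38% held CAGAC, 16.4% GGCGCC, 11% TGTGGT and 10.8% TATAAA on either strand. BMP4, ALPL, RUNX2 and SMAD7 have several RefSeq starts. A match is a run of letters and does not show that a factor binds there.

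As deposited, RNA of BMP4, ID1, ID3 and SMAD6 was at least 2-fold lower after EP400 siRNA, RNA of ALPL and TNFRSF11B at least 2-fold higher, and ID2, SMAD7, RUNX2 and SPP1 were under 2-fold. At least 2-fold higher were 2 of 10 members, against 6.11% of all genes analysed. At least 2-fold lower were 4 of 10, against 22.9% of all genes. The confidence limits of EP400 siRNA and mock siRNA were apart for 0 of 10, against 0.214% of all genes. The members' median log2 ratio of EP400 siRNA over mock siRNA, on (FPKM + 1), was -0.65, beside -0.20 for all genes. After rescaling both libraries to the same sum (TPM), 3 members were higher and 2 lower, with a median of -0.14 beside 0.48 for all genes, of which 3679 were then higher and 697 lower, against 713 and 2678 as deposited. Centring on the median of all genes gave 2 members higher and 3 lower (1262 and 1826 of all genes), as did centring by local gene density (1028 and 1277).

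**Figure D1:**
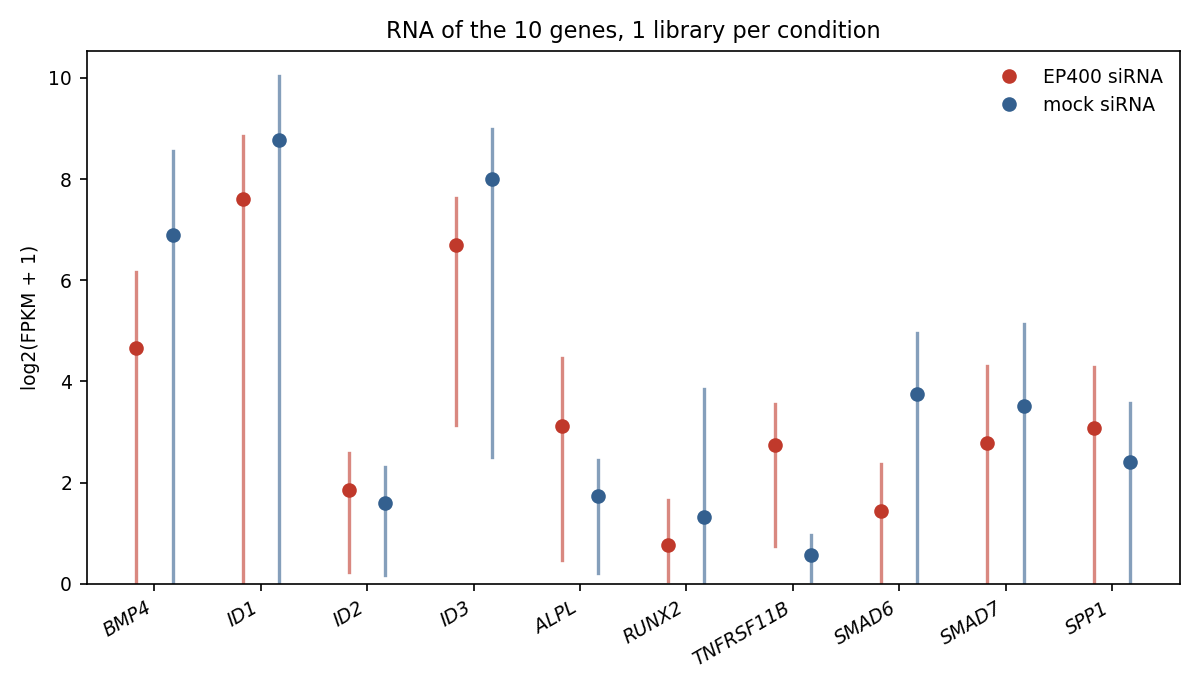
RNA of the 10 genes on a log2(FPKM + 1) axis, with EP400 siRNA (red) left of mock siRNA (blue) and 1 library each; lines are the authors' confidence limits. BMP4, ID1, ID3 and SMAD6 were lower and ALPL and TNFRSF11B higher by at least 2-fold as deposited, and the lines of the conditions overlap for every gene; the ratio of ID1 is under 2-fold under the 3 other scalings, and that of ID3 on TPM and on density centring.

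BMP4, which encodes a BMP ligand, had 24.3 FPKM after EP400 siRNA (limits 0 to 70.6) and 118 FPKM after mock siRNA (0 to 376). The EP400 siRNA library was lower, at 20.7% of mock, and the limits overlapped. The log2 ratio was -2.23, and -1.49 on TPM, and it ranked 11520 of 11673 genes from the top. All 3 BMP4 transcripts were lower after EP400 siRNA, with log2 ratios of -2.23, -2.26 and -0.85.

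The ID proteins are helix-loop-helix proteins without a DNA-binding region, which block differentiation factors of the basic helix-loop-helix family. ID1 had 194 FPKM after EP400 siRNA (limits 0 to 459.6) and 435 FPKM after mock siRNA (0 to 1048). It was the most abundant member in both libraries, and it was lower after EP400 siRNA with overlapping limits and a log2 ratio of -1.16. That ratio was -0.96 on median centring, -0.39 on TPM and -0.38 on centring by gene density, all under 2-fold. ID3 had 102 FPKM after EP400 siRNA (limits 7.80 to 197) and 255 FPKM after mock siRNA (4.66 to 505). It too was lower, with overlapping limits and a log2 ratio of -1.31, which came to -0.54 on TPM and -0.88 on density centring. ID2 had 2.61 FPKM after EP400 siRNA (limits 0.181 to 5.04) and 2.03 FPKM after mock siRNA (0.136 to 3.93). The libraries were close and the limits overlapped almost fully, and the log2 ratio of 0.25 turned to -0.05 on density centring.

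SMAD6, an inhibitory SMAD that acts mainly on BMP signalling, had 1.71 FPKM after EP400 siRNA (limits 0 to 4.15) and 12.5 FPKM after mock siRNA (0 to 30.1). It was lower after EP400 siRNA, at 13.7% of mock, with overlapping limits. Its log2 ratio of -2.31 was the lowest of the 10, and it stayed between -1.89 and -2.60 under the other scalings. SMAD7, the inhibitory SMAD that acts on TGF-beta and BMP receptors, had 5.85 FPKM after EP400 siRNA (limits 0 to 18.6) and 10.4 FPKM after mock siRNA (0 to 34.3). It was lower with overlapping limits, at a log2 ratio of -0.73 that came to -0.05 on TPM and -1.04 on density centring.

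RUNX2, the master transcription factor of osteoblasts, had 0.697 FPKM after EP400 siRNA (limits 0.0322 to 2.15) and 1.51 FPKM after mock siRNA (0 to 13.5). Both levels were low and the limits overlapped, and the log2 ratio was -0.56, or -1.01 with a pseudocount of 0.1. Of its 5 transcripts, the one that held most of the EP400 siRNA value had 0.642 FPKM after EP400 siRNA and 0.599 FPKM after mock siRNA. RUNX2 met the minimum of 1 FPKM through the mock library.

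ALPL, the tissue-nonspecific alkaline phosphatase of mineralizing osteoblasts, had 7.75 FPKM after EP400 siRNA (limits 0.393 to 21.1) and 2.31 FPKM after mock siRNA (0.167 to 4.45). It was higher after EP400 siRNA, by 3.36-fold, with overlapping limits and a log2 ratio of 1.40. A single one of its 3 transcripts held 7.64 FPKM of the EP400 siRNA value and the whole mock value. SPP1, which encodes the matrix protein osteopontin, had 7.46 FPKM after EP400 siRNA (limits 0 to 18.4) and 4.34 FPKM after mock siRNA (0 to 10.9). It was higher with overlapping limits, at a log2 ratio of 0.66, or 1.43 on TPM, which is past 2-fold.

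TNFRSF11B encodes osteoprotegerin, the secreted decoy receptor that keeps RANKL from osteoclast precursors. It had 5.71 FPKM after EP400 siRNA (limits 0.679 to 10.7) and 0.490 FPKM after mock siRNA (0.0362 to 0.944). The EP400 siRNA library was higher by 11.6-fold, and the limits overlapped in the narrow range between 0.679 and 0.944 FPKM. The log2 ratio of 2.17 ranked 71 of 11673 genes from the top and was between 1.85 and 3.22 under the other scalings. TNFRSF11B met the minimum of 1 FPKM only through the EP400 siRNA library, where it is high.

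Related genes of the BMP, TGF-beta and bone programmes came from lists drawn up with earlier results of these data known, and 40 of their 80 genes reached 1 FPKM. At least 2-fold higher were 3 (7.5%) and at least 2-fold lower 9 (22.5%), beside 6.11% and 22.9% of all genes, and their median log2 ratio was 0.03, beside -0.20 for all genes. On TPM 13 of the 40 were higher and 4 lower, beside 31.5% and 5.97% of all genes. Their median on TPM was 0.70, beside 0.48 for all genes. The BMP receptor and SMAD genes were under 2-fold in both directions for all 7 analysed (median 0.24), among them SMAD1 (log2 ratio 0.24), SMAD5 (0.51), SMAD4 (0.32), BMPR1A (0.10) and BMPR2 (-0.19). On TPM, 1 of these 7 was higher, beside 31.5% of all genes. Several of the 7 were low, with mean FPKM of 1.07 for SMAD4, 1.15 for BMPR1A and 1.47 for SMAD1. At such levels the added 1 FPKM narrows the ratio, while ENG of the same list had a mean of 21.6. Of 8 analysed antagonists and SMURFs, the secreted BMP antagonists NOG (-1.21), CHRD (-2.39) and NBL1 (-1.08) were lower, and SMURF2, a ubiquitin ligase for receptors and SMADs, was higher (1.05). On TPM only CHRD of these was at least 2-fold lower (-2.12), NOG and NBL1 coming to -0.49 and -0.33. CHRD had 0.993 FPKM after EP400 siRNA and 9.47 FPKM after mock siRNA. It met the minimum of 1 FPKM only through the mock library, where it is high. Of the ligands, BMP7 was lower as deposited (-1.03) but under 2-fold on median centring (-0.83) and on TPM (-0.43). BMP5 had a log2 ratio of 0.87 as deposited, and was past 2-fold higher on median centring (1.07) and on TPM (1.66). As deposited, 0 of 2 other BMP targets, 0 of 5 osteoblast transcription factors and 0 of 1 gene of the RANKL axis were past 2-fold. On TPM 2 of the 5 transcription factors were higher, beside 31.5% of all genes.

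Of 5 bone matrix and mineral genes analysed, 1 was higher and 1 lower by 2-fold or more, while SPARC (-0.36), ANKH (-0.07) and PHOSPHO1 (-0.95) were under 2-fold. COL1A1, which encodes a chain of type I collagen, had 60.8 FPKM after EP400 siRNA and 376 FPKM after mock siRNA, a log2 ratio of -2.61. The phosphate transporter gene SLC20A1 had 132 FPKM after EP400 siRNA and 21.8 FPKM after mock siRNA, a log2 ratio of 2.55. Of the other alkaline phosphatase genes 2 were analysed, both of which met the minimum of 1 FPKM only through the mock library, where they are high. ALPP, the placental form, had 0.0571 FPKM after EP400 siRNA and 12.7 FPKM after mock siRNA (log2 ratio -3.69), and ALPG, the germ cell form, had 0.00553 and 2.59 FPKM in the same order (-1.83). ALPP and ALPG are near-identical copies whose reads the counting could have split. In the TGF-beta list, TGFBR2 was higher (2.18) and TGFB1 and TGFB3 were lower (-1.03 and -1.04), though both were under 2-fold lower on TPM (-0.27 and -0.78). TGFB3, at 0.704 FPKM after EP400 siRNA and 2.51 FPKM after mock siRNA, met the minimum of 1 FPKM only through the mock library.

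**Figure D2:**
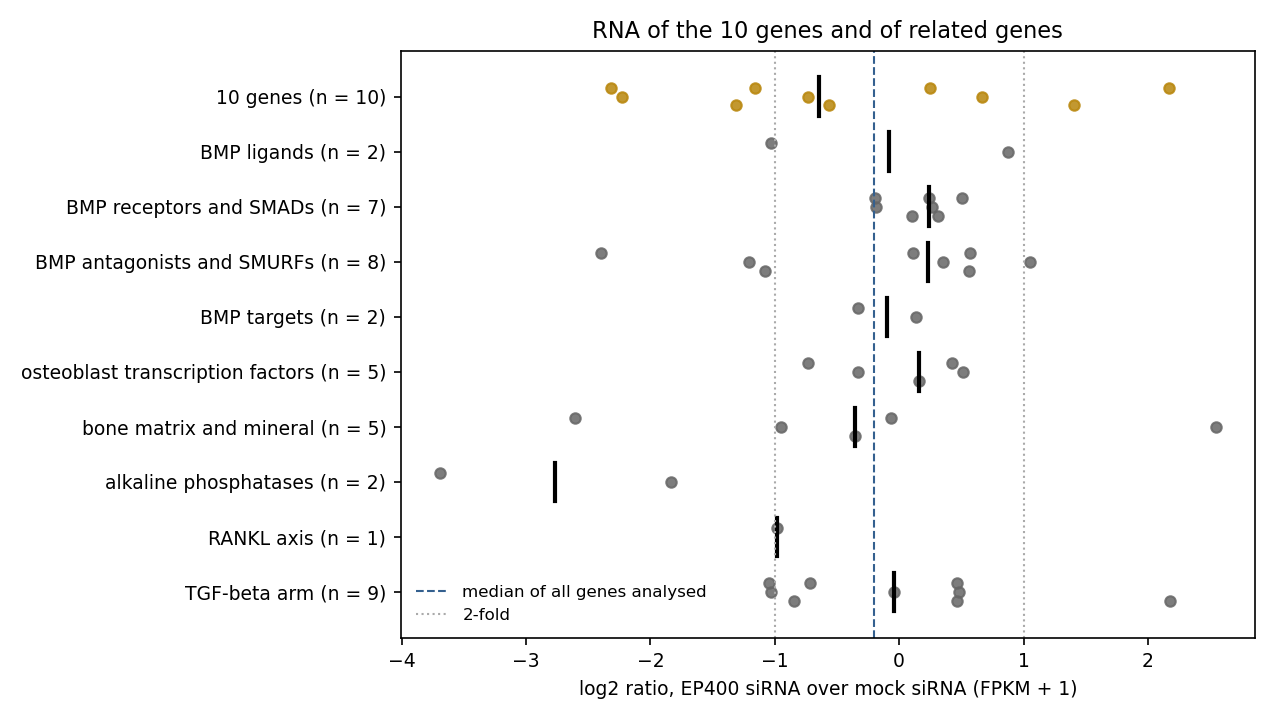
Log2 ratio of EP400 siRNA over mock siRNA on (FPKM + 1), 1 point per gene, for the 10 genes (top) and the related lists, with the number of genes analysed; black bars are medians, the dashed line is the median of all genes (-0.20) and dotted lines mark 2-fold. MSX2 stands in 2 lists. The 10 genes spread from -2.31 to 2.17. All 7 BMP receptor and SMAD genes, several of them low, lie within 2-fold as deposited. Of all genes 6.11% were at least 2-fold higher and 22.9% lower. On TPM 1 of the 7 is past 2-fold higher, beside 31.5% of all genes.

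Before the peaks of both conditions are compared, the lists themselves differ. For H3.3 there were 41439 peaks after EP400 siRNA and 79838 after mock siRNA. H2AZ had 26526 and 58082 peaks in the same order, Pol II had 20987 and 30760, and MED26 had 24366 and 27006. The lists carry no height or score, and the depth behind them is unknown, which alone can change how many peaks are called, so counts near the members are set beside those near all genes analysed. A member's surroundings are its locus in the RNA table (a cluster of overlapping transcripts) with 50 kb on each side, on hg19. The loci span 1.23 kb (ID1) to 724 kb (RUNX2), so a longer locus can hold more peaks. Whether a peak lies in an exon or an intron was not analysed here.

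EP400 peaks lay within 50 kb of 9 of 10 members, against 73.6% of all genes analysed, and in the locus or within 2 kb of it for 8 of 10, against 49.4%. ALPL was the member with 0 within 50 kb. Locus length was not matched between the members and all genes. The 2 EP400 peaks of RUNX2 lay inside the 724 kb locus that it shares with SUPT3H. The 31 EP400 peaks within 50 kb of the members were short (50 to 400 bp). Of these 12 overlapped mock H3K18ac and 4 mock H3K4me1, and 13 overlapped no other list. The same shares over all 18048 EP400 peaks were not computed, so these counts cannot be called particular to the members. At BMP4 an EP400 peak of 100 bp at chr14:54422101-54422200 lay in the locus, 1354 bp from the locus end taken as its start. It overlapped mock peaks of H2AZ, Pol II, MED26 and H3K18ac. ID1 had an EP400 peak in its locus at chr20:30194101-30194250 and another 534 bp beyond its far end, and both overlapped mock H3.3, Pol II, MED26 and H3K18ac. ID3 had 2 EP400 peaks in its locus, 1235 and 1785 bp from its start. SMAD6 had one 1074 bp before its start, at chr15:66993551-66993600, and 2 deep in the locus, and TNFRSF11B had 2 in the locus and 4 below it. Mock H3K18ac reached the locus or 2 kb around it for 9 of 10 members, against 84.2% of all genes, and mock H3K4me1 for 8 of 10, against 54.2%. SPP1 had neither mark there.

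H3.3 peaks within 50 kb were fewer after EP400 siRNA at 8 of 10 members, against 69.3% of all genes, and more at 2 of 10, against 20.8%. Together the members had 42 H3.3 peaks after EP400 siRNA and 221 after mock siRNA. SMAD6 had 10 after EP400 siRNA and 76 after mock siRNA, of which 6 and 52 lay in its locus. SMAD7 had 0 and 33 in the same order, ALPL 0 and 15, and ID2 0 and 3, so these 3 members had no H3.3 peak left. How many of all genes went to 0 was not counted. After EP400 siRNA the median gene had 2 H3.3 peaks in the sparsest of 10 groups by local gene density and 4 in the densest. ID1 had 7 after EP400 siRNA and 43 after mock siRNA, and ID3 had 7 and 37. RUNX2 had 2 and 6, and BMP4 4 and 7. The 2 members with more were TNFRSF11B, with 7 after EP400 siRNA and 1 after mock siRNA, and SPP1, with 5 after EP400 siRNA and 0 after mock siRNA.

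The H3.3 counts differed between chromosomes and with gene density, whose part in these values was not tested. On chromosome 20, which holds ID1, the whole H3.3 list had 451 peaks after EP400 siRNA and 2693 after mock siRNA. On chromosome 4, which holds SPP1, it had 2467 and 1425 in the same order, and on chromosome 8, which holds TNFRSF11B, 2174 and 2792. On chromosome 18, which holds SMAD7, it had 996 after EP400 siRNA and 902 after mock siRNA. On chromosome 14, which holds BMP4, it had 2024 after EP400 siRNA and 1970 after mock siRNA. ID1, ID2, ID3, ALPL, RUNX2 and SMAD6 had fewer H3.3 peaks on chromosomes with fewer, and SPP1 had more on a chromosome with more. SMAD7 and BMP4 had fewer on chromosomes with more, and TNFRSF11B had more on a chromosome with fewer. Of the genes in the sparsest of 10 groups by local gene density (1 to 5 loci within 500 kb), 31.8% had fewer H3.3 peaks and 46.0% more. In the densest group (33 to 65 loci) 95.1% had fewer. BMP4, ID2, RUNX2 and SMAD7 stood in the sparsest group and all 4 had fewer. Counted from the sparsest, TNFRSF11B stood in group 2, where 39.2% of genes had more, and SPP1 in group 4, where 33.5% had more. ALPL and SMAD6 stood in group 3, ID3 in group 7 and ID1 in group 8, where 48.2%, 84.7% and 92.4% had fewer.

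**Figure D3:**
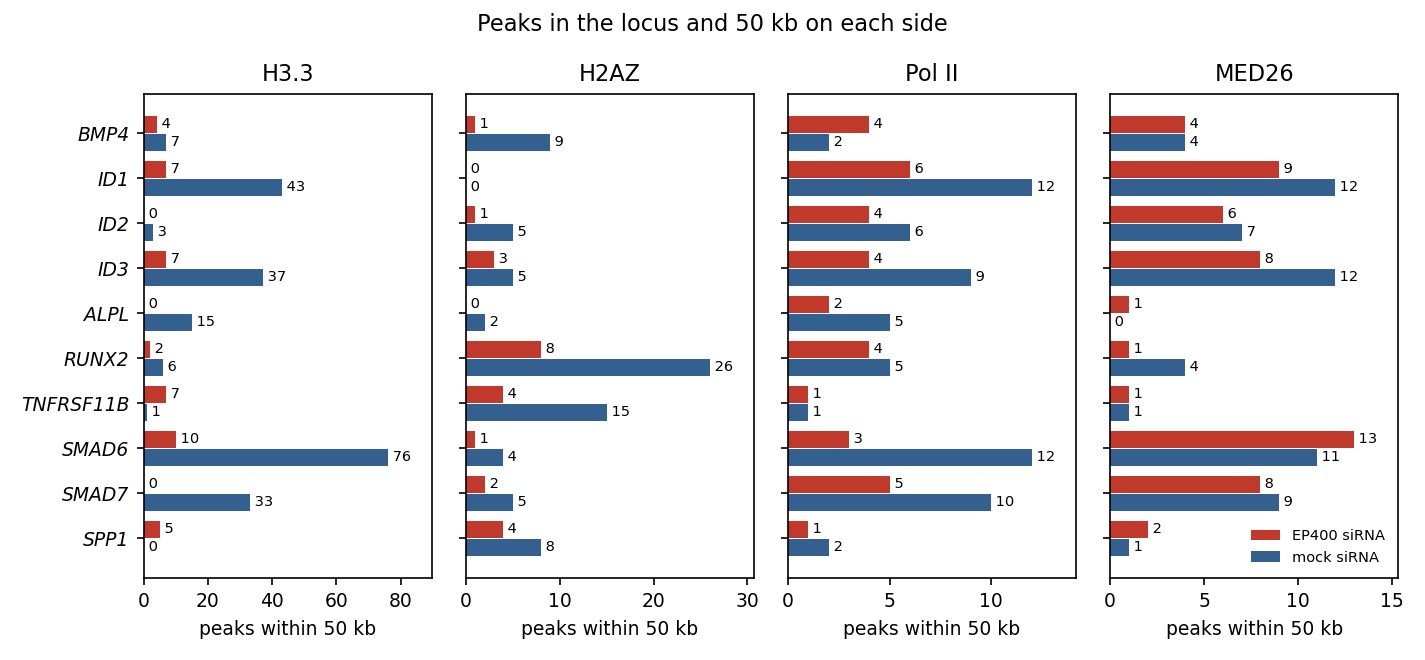
Number of peaks in the locus and 50 kb on each side for each gene, with EP400 siRNA (red) above mock siRNA (blue), 1 peak list each; each panel has its own axis. H3.3 peaks were fewer at 8 genes and more at TNFRSF11B and SPP1, and H2AZ peaks were fewer at 9, with 0 in both lists at ID1.

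Few mock H3.3 peaks near the members met an H3.3 peak after EP400 siRNA. Of 221, 9 overlapped one by at least 1 bp (4.07%, Wilson 95% interval 2.16 to 7.56%), beside 5.12% near all genes analysed. These intervals cover counting error only. The 9 lay at ID1, ID3 and SMAD6, 3 each. Not one of the mock H3.3 peaks at BMP4, ID2, ALPL, RUNX2, TNFRSF11B or SMAD7 was met, where 5.12% were met near all genes. The peaks called at BMP4 and RUNX2 after EP400 siRNA thus shared no base with a mock H3.3 peak. At BMP4 one of them (chr14:54415501-54415700) directly adjoined a mock peak (chr14:54415401-54415500).

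H2AZ peaks within 50 kb were fewer after EP400 siRNA at 9 of 10 members, against 80.6% of all genes, and more at 0 of 10, against 4.91%. ID1 had 0 in both lists. RUNX2 had 8 after EP400 siRNA and 26 after mock siRNA, TNFRSF11B 4 and 15, BMP4 1 and 9, and SPP1 4 and 8. Of 79 mock H2AZ peaks near the members, 12 met a peak after EP400 siRNA (15.2%, interval 8.91 to 24.7%), beside 35.6% near all genes. In the whole H2AZ list the share was 28.1%. RUNX2, with its long locus, held 26 of the 79, and without it the share was 17.0% of 53. When the mock list was reduced to its widest peaks, as many as after EP400 siRNA, the share was 35.7% near the members, beside 56.1% near all genes, and 5 of 10 members had fewer, beside 34% of all genes. The wide H2AZ peak at the high-coordinate end of TNFRSF11B was present in both lists, 1100 bp long after EP400 siRNA and 1600 bp after mock siRNA. The 12 mock peaks in the 50 kb below the locus were not met there.

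Pol II peaks within 50 kb were fewer after EP400 siRNA at 8 of 10 members, against 57% of all genes, and more at 1 of 10, against 11.1%. With the wider 0.5 of each list 5 of 10 had fewer, beside 54.7% of all genes, and with equal peak numbers 5 of 10, beside 32.8%. Of 64 mock Pol II peaks 24 met one after EP400 siRNA (37.5%, interval 26.7 to 49.7%), beside 49.4% near all genes, and this share was 70.8% among the wider peaks, beside 64% near all genes, and 54.5% with equal numbers, beside 68.5%. The member with more was BMP4, where the peaks were shorter after EP400 siRNA. After EP400 siRNA BMP4 had Pol II peaks of 2000, 300 and 600 bp in its locus, and after mock siRNA 1 peak of 4300 bp covered the same stretch (chr14:54419701-54424000). ID1 had a Pol II peak of 1400 bp over its start and others of 400 and 100 bp beside it after EP400 siRNA, and after mock siRNA 1 peak of 3400 bp covered this whole stretch. At ID3 the peak in the locus was 1500 bp long after EP400 siRNA and 1900 bp after mock siRNA.

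At SMAD6 the Pol II peak over the start was in both lists. It was 3500 bp long after EP400 siRNA and 3700 bp after mock siRNA, whereas the locus held 2 Pol II peaks after EP400 siRNA and 11 after mock siRNA. SMAD7 had 3 Pol II peaks within 2 kb of the locus end taken as its start in both lists. SPP1 had 0 at its start after EP400 siRNA and 1 of 100 bp after mock siRNA, although its RNA value was higher after EP400 siRNA. TNFRSF11B had 1 Pol II peak at the high-coordinate end of its locus in both lists, 600 bp long after EP400 siRNA and 700 bp after mock siRNA, beside an RNA value 11.6-fold higher. ALPL, also higher in RNA, had 1 Pol II peak in its locus after EP400 siRNA and 3 after mock siRNA.

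MED26 peaks within 50 kb were fewer after EP400 siRNA at 5 of 10 members, against 40.4% of all genes, and more at 3 of 10, against 26.9%. The totals were 53 after EP400 siRNA and 61 after mock siRNA, and 30 of the 61 met a peak after EP400 siRNA (49.2%, interval 37.1 to 61.4%), beside 52.5% near all genes. Counted by covered bases, 8 of 10 members had less, beside 71.5% of all genes, and among the wider 0.5 of each list 2 had fewer peaks, beside 31.9%. BMP4 had a MED26 peak of 4200 bp over the locus end taken as its start after EP400 siRNA and one of 4600 bp after mock siRNA. The ID1 start had one of 3700 bp after EP400 siRNA and one of 3900 bp after mock siRNA. At the SMAD6 start there were peaks of 2000 and 700 bp after EP400 siRNA and 1 peak of 3000 bp after mock siRNA. MED26 thus covered the starts of BMP4, ID1 and SMAD6, as placed here, in both lists. The RNA of all 3 was at least 2-fold lower as deposited, ID1 being under 2-fold lower under the other scalings.

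**Figure D4:**
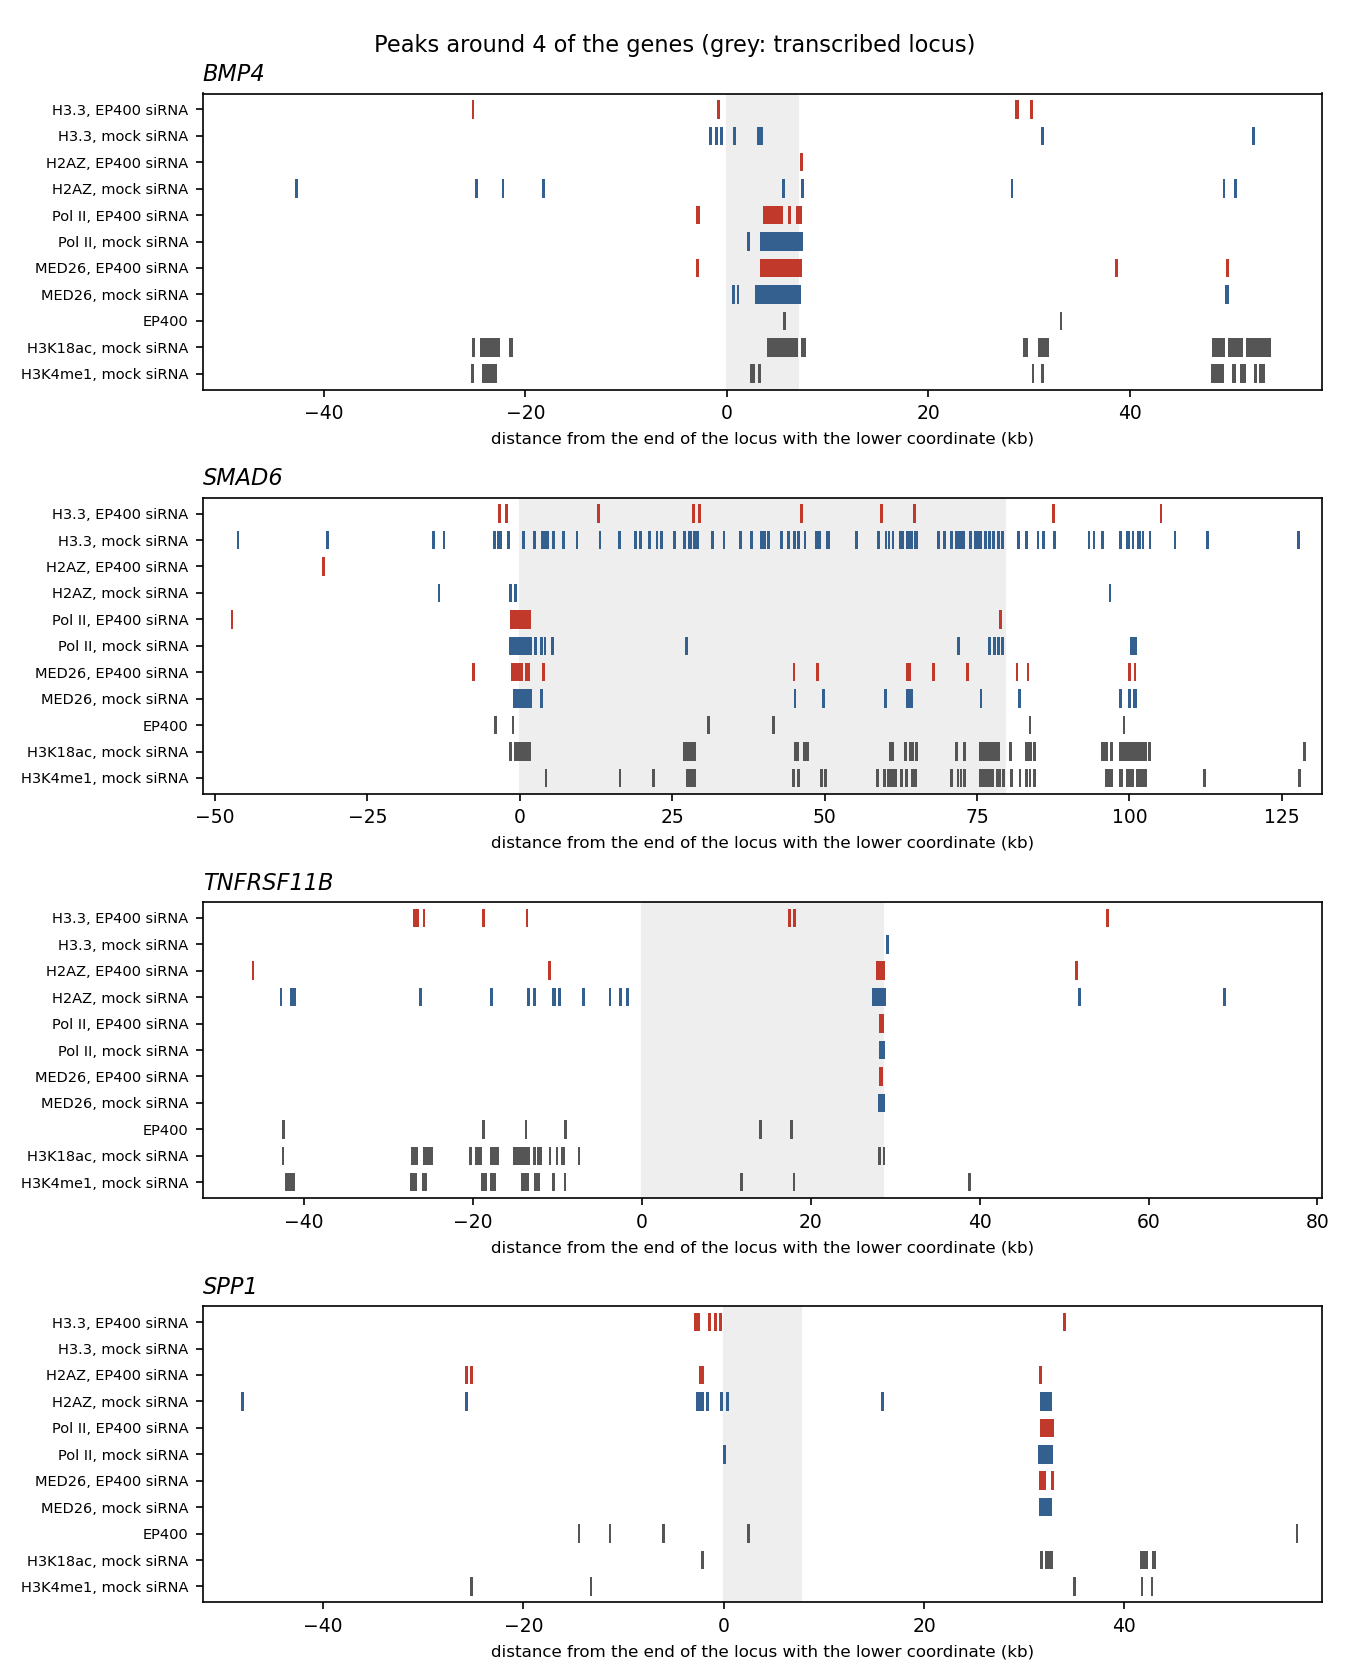
Peaks around BMP4, SMAD6, TNFRSF11B and SPP1, by distance in kb from the low-coordinate end of each locus (grey), with EP400 siRNA (red) above mock siRNA (blue) and the single lists in dark grey; each bar is a peak, drawn at least wide enough to be seen. SMAD6 has 10 H3.3 peaks after EP400 siRNA and 76 after mock siRNA, SPP1 has 5 and 0, and the Pol II peak at the high end of TNFRSF11B is in both lists.

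At the start of SPP1 the histone variants differed in direction. Within 2 kb of the start there were 3 H3.3 peaks after EP400 siRNA and 0 after mock siRNA, but 0 H2AZ peaks after EP400 siRNA and 3 after mock siRNA. The same split held over the whole of chromosome 4, so it is not particular to SPP1. There H3.3 had 2467 peaks after EP400 siRNA and 1425 after mock siRNA, and H2AZ 2253 and 5004. At TNFRSF11B, the EP400 siRNA list had 7 H3.3 peaks, 2 of which met an EP400 peak, one of these in the locus at chr8:119953101-119953500. The only mock H3.3 peak there lay 318 bp beyond the high-coordinate end.

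**Figure D5:**
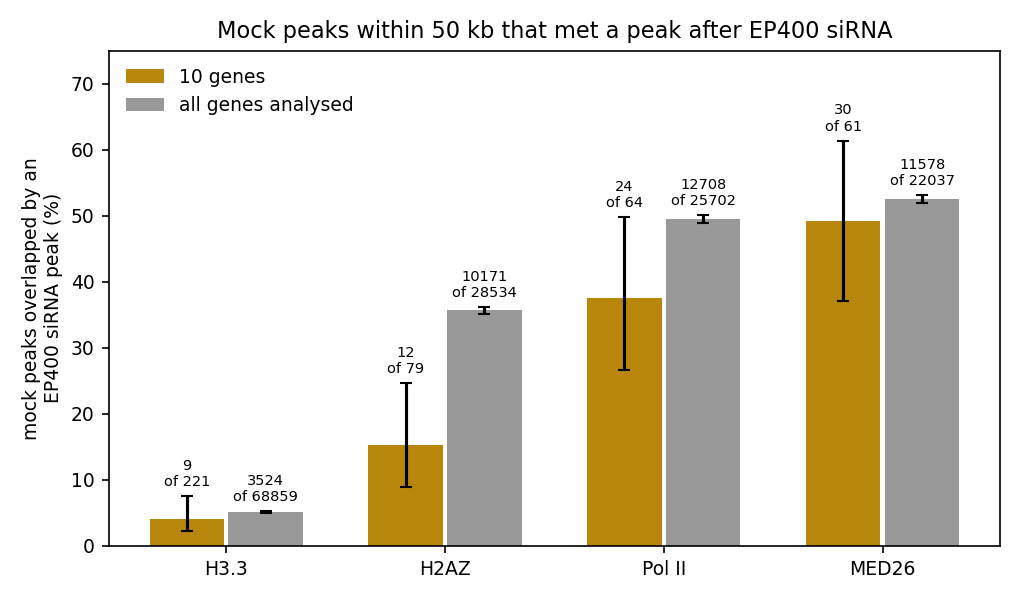
Percent of mock peaks within 50 kb that met one in the EP400 siRNA list of that antibody, for the 10 genes (gold) and all genes analysed (grey), with Wilson 95% intervals for counting error and the counts above. The share was lowest for H3.3 (4.07% and 5.12%) and highest for MED26 (49.2% and 52.5%).

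Of 14 genes whose loci lie within 50 kb of a member, 9 reached 1 FPKM. Among these 0 were at least 2-fold higher and 3 lower as deposited, beside 6.11% and 22.9% of all genes. On TPM 2 were higher and 2 lower, beside 31.5% and 5.97% of all genes. E2F2, a cell cycle transcription factor gene 26.7 kb from ID3, had 6.32 FPKM after EP400 siRNA and 27.6 FPKM after mock siRNA (log2 ratio -1.97). RAP1GAP, 17.8 kb from ALPL, had 1.67 FPKM after EP400 siRNA and 5.33 FPKM after mock siRNA (-1.25, or -0.78 on TPM), the opposite direction to ALPL. The third was a transcript without a symbol inside the SMAD6 locus (-1.70). It had 0.611 FPKM after EP400 siRNA and 4.25 FPKM after mock siRNA, and met the minimum of 1 FPKM only through the mock library. HM13, 32.0 kb from ID1, had a log2 ratio of -0.62 (0.15 on TPM), and KIDINS220, near ID2, one of -0.11 (0.52 on TPM). NBPF3 near ALPL had -0.20 (0.39 on TPM), and PKD2 near SPP1 had 0.55, which came to 1.27 on TPM, past 2-fold. RUNX2 shares its locus with SUPT3H, which was under 1 FPKM in both libraries, so the peaks counted for RUNX2 are those of both genes.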

How the data were processed

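RNA values are FPKM per transcript with confidence limits, deposited by the authors. Other files are peak lists deposited by the authors, giving positions with no score. The tools named are Cuffdiff 2.0.2, TopHat2 2.0.8 and Bowtie 0.12.9, with the hg19 build, per the submitters' processing notes. Which peak caller, threshold, control, annotation release and normalization were applied was not given in the sources used here. Depth is unknown. The 4 inputs were not analysed here.

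Members and lists were chosen with earlier results of these data known. The rule for named genes took the 10 members, up to 4 analysed neighbours of each within 50 kb, and per list up to 4 genes of 2-fold or more. BMP5, the BMP receptor and SMAD genes and the keratins fall outside it and were chosen after their values were seen. Symbols came from RefSeq identifiers (GRCh38.p14 table, names only), for 97.7% of 48669 rows. Rows under 200 nt (2116) were left out, the FPKM and limits of the others were summed per gene, which widens the limits, and 122 genes with a failed estimate were dropped. Genes with a mean FPKM of at least 1 were analysed. The log2 ratio of (FPKM + 1) understates differences of low genes. Peaks that share at least 1 bp were taken as overlapping, and the steps of the lists are 50 bp for EP400 and 100 bp otherwise. A gene's start is the locus end given by the RefSeq strand, and it was not placed for RUNX2 and TNFRSF11B. BMP4, ALPL and SMAD7 have several RefSeq starts, so for them this end need not be the start in use. Overlap and ratio steps were tested on simulated data. Python 3.11.15, pandas 2.3.3, NumPy 2.4.6, SciPy 1.17.1 and matplotlib 3.10.9 were used.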

Additional observations from a re-analysis of the deposited data

How the results depend on the processing

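Of 159 values recomputed, 136 kept their direction and side of 2-fold or moved little, 14 moved, 5 fell under 2-fold, 3 passed it and 1 changed sign, the log2 ratio of ID2, which was -0.052 on centring by gene density. Part of the 136 could not change and are no check. Dropping or raising the minimum FPKM, or keeping rows under 200 nt, leaves the ratio of each member kept as it was. With a minimum mean of 5 FPKM, 7 members remain. Of these 1 was at least 2-fold higher and 4 lower, beside 5.98% and 32.0% of all genes. The higher one, ALPL, met this minimum only through the EP400 siRNA library, where it is high. SMAD6, among the lower, met it only through the mock library, where it is high. On TPM 2 of the 10 members were lower, beside 5.97% of all genes. The share of mock peaks met after EP400 siRNA was 1.96% for H3.3 in the loci with 2 kb (2 of 102), beside 5.42% for all genes analysed. Requiring an overlap of 0.5 of the mock peak gave 0.905% for H3.3 and 7.59% for H2AZ, a setting not computed near all genes. In the wider 0.5 of each list the share was 70.8% for Pol II and 73.9% for MED26, beside 64% and 71.3% near all genes. There 5 and 2 members had fewer peaks, beside 54.7% and 31.9% of all genes. With equal peak numbers, an alternative chosen after seeing the data, the share was 35.7% for H2AZ and 54.5% for Pol II. Near all genes it was 56.1% and 68.5%. Then 5 members had fewer H2AZ and 5 fewer Pol II peaks, beside 34% and 32.8% of all genes. By covered bases, 8 members had less MED26, beside 71.5% of all genes. Leaving out the RUNX2 or the SMAD6 locus, also chosen after seeing the data, gave 4.19% and 4.14% for H3.3. For H2AZ it gave 17.0% and 16% in the same order. The cause of these shifts was not tested. No paired analysis was possible because each condition had 1 library and the numbered EP400 immunoprecipitations came as 1 list. FPKM without counts give no depth, and lists without heights cannot separate a lost peak from one just under the threshold.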
